A study of Homo sapiens with 12 samples.

Results

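Of the 6 LNCaP libraries, the replicate 3 library of each arm lay on one side of the leading axis of variation and replicates 1 and 2 of both arms lay on the other. The genes that set these 2 libraries apart are described here. The 2 libraries were chosen by their measured expression values, among 12 libraries in the whole series, and the differences between them and the other 4 LNCaP libraries are therefore given as a description, with no test. LNCaP is an androgen-sensitive line grown from a lymph node metastasis of a prostate cancer. The cells grew in 10% charcoal-stripped serum, a serum depleted of androgens, and were transfected either with a control oligonucleotide (NC-mimic, 3 libraries) or with a synthetic copy of the PIWI-interacting RNA piR-hsa-4447944 (piR-4447944 mimic, 3 libraries). The same 2 transfections were sequenced in 22Rv1, a line from a castration-relapsed xenograft, with 3 libraries each. The labels number the libraries 1 to 3 but do not say whether a number stands for a culture, a passage, a day or an extraction, and each line is 1 established line, so that p-values measure the spread between these libraries, which may be technical.

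Cells that leave the cell cycle lower the transcripts of DNA replication and then of mitosis together, because most of these genes are driven by the E2F and MuvB families of transcription factors. In prostate cancer cells androgens add a programme of their own, which raises secretory and metabolic genes and holds others down. Separate sets of stress genes respond to unfolded proteins, to amino acid supply and to oxygen.

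Read depth was similar in the 6 LNCaP libraries, with 14894247 to 19739559 expected counts each. After the mean of its arm was taken from each library, the first principal component held 34.6% of the variance over 16843 genes, and the replicate 3 libraries lay at 0.56 (NC-mimic) and 0.57 (mimic) on it, against -0.40 to -0.17 for the others. The second component held 25.6% and set mimic replicate 1 (0.51) apart from mimic replicate 2 (-0.79), so the libraries other than replicate 3 also differed among themselves. Mean fragment length (264 to 281 bases) and the share of counts on mitochondrial genes (4.24 to 5.33%) did not set replicate 3 apart, whereas the RN7SL RNAs took 0.0729% and 0.0592% of counts in replicate 3 and 0.0284 to 0.0438% in the others. Long non-coding RNAs also took a larger share in replicate 3, 2.03% (NC-mimic) and 2.07% (mimic), against 1.96 to 1.99% in the others. The luminal prostate markers were abundant in every library, at a summed 8310 to 8655 CPM (counts scaled to a common library size) in replicate 3 and 8197 to 8580.5 CPM in the others. Of 45 markers of basal cells, fibroblasts, endothelium and leukocytes, 14 passed the filter on low counts, and PTPRC, KRT5, CDH5 and COL1A2 had no count in any of the 6. The summed level in replicate 3 was 86.7 to 90.3 CPM for fibroblast markers, mostly from COL1A1, against 64.7 to 74.8 CPM in the others, and 55.2 to 61.4 against 48.1 to 51.6 CPM for basal markers. It was 8.03 to 10.1 against 6.65 to 8.81 CPM for endothelial and 2.19 to 2.21 against 2.18 to 3.19 CPM for leukocyte markers. Their part in the differences below was not tested. In bulk RNA, fewer cells in a state and less RNA per cell cannot be told apart.

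Replicate 3 differed from replicates 1 and 2 with modest changes in many genes. In a fit with the mimic as a term, 303 of 16843 genes (1.8%) passed an adjusted p under 0.05, which serves here as a cut for listing genes, with 142 (0.843%) higher and 161 (0.956%) lower in replicate 3, and these are referred to as called. Their median absolute log2 fold change was 0.45, and 21 exceeded 1. Within both arms, replicate 3 lay outside the range of replicates 1 and 2 on the same side for 301 of the 303, and for 37.8% of all genes tested. The last genes inside the cut were MRPL34 (0.45), PGGHG (0.36) and MT-ND1 (-0.27), and the first outside it were TCF19 (-0.40), SH3RF1 (-0.31) and EHD3 (0.40), all as log2 fold changes of replicate 3 over the others. The number of genes past the cut moved with single libraries, being 41 without NC-mimic replicate 3, 40 without mimic replicate 3, 60 without mimic replicate 1, 166 without NC-mimic replicate 1 and 569 without NC-mimic replicate 2.

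The transcripts of DNA replication were lower as a group. Of 53 S phase genes, 15 were lower in replicate 3 and none was higher, 51 had a negative log2 fold change, and 46 lay below both other replicates in each arm. The median was -0.30 on the log2 scale, -0.24 with NC-mimic and -0.35 with the mimic, against 0.0038 over all genes. CDC6, which loads the MCM helicase onto origins, measured 56.99 and 61.2 CPM in NC-mimic replicates 1 and 2 and 42.3 CPM in replicate 3, and 60.9, 57.9 and 36.2 CPM in the same order with the mimic. Replicate 3 was thus at 0.66 of the level of the others (log2 -0.59 ± 0.084, SE). CCNE2, the cyclin E2 that starts S phase with CDK2, measured 9.59 and 11.3 CPM in the NC-mimic and mimic replicate 3, against 20.8 and 18.8 CPM in the other NC-mimic and 17.4 and 18.6 CPM in the other mimic libraries (log2 -0.85 ± 0.13). RRM2 and RRM1, the subunits of the ribonucleotide reductase that makes deoxynucleotides, were lower by different amounts. RRM2 measured 91.4, 94.5 and 63.3 CPM in NC-mimic replicates 1, 2 and 3 and 96.9, 89.5 and 61.1 CPM in mimic replicates 1, 2 and 3 (log2 -0.58 ± 0.070), and RRM1 differed by a log2 of -0.37 ± 0.072.

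The helicase itself was represented by MCM4 (-0.38 ± 0.064 on the log2 scale), MCM5 (-0.40 ± 0.074), MCM6 (-0.46 ± 0.083), CDC45 (-0.45 ± 0.10), GINS1 (-0.38 ± 0.075) and GINS2 (-0.54 ± 0.12). MCM5 measured 51.5 and 49.9 CPM in the NC-mimic and mimic replicate 3, against 70.3 and 65.03 CPM in the other NC-mimic and 65.4 and 66.96 CPM in the other mimic libraries. At the fork, PCNA, the sliding clamp of the polymerases, measured 123, 141 and 100.3 CPM in NC-mimic replicates 1, 2 and 3 and 133, 121 and 96.00 CPM in mimic replicates 1, 2 and 3 (log2 -0.40 ± 0.072). The clamp loader subunits RFC2 (-0.37 ± 0.088) and RFC5 (-0.44 ± 0.091), the flap nuclease FEN1 (-0.32 ± 0.074) and the checkpoint adaptor CLSPN (-0.45 ± 0.090) were lower as well. The exceptions in the list were CCNE1 (0.18), the other E-type cyclin, and RPA3 (0.039). Neither passed the cut. Without NC-mimic replicate 3, mimic replicate 3, mimic replicate 1 or NC-mimic replicate 1 the S phase genes called fell to 3, 2, 3 and 11, and the median stayed between -0.36 and -0.24 under every setting run.

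**Figure D1:**
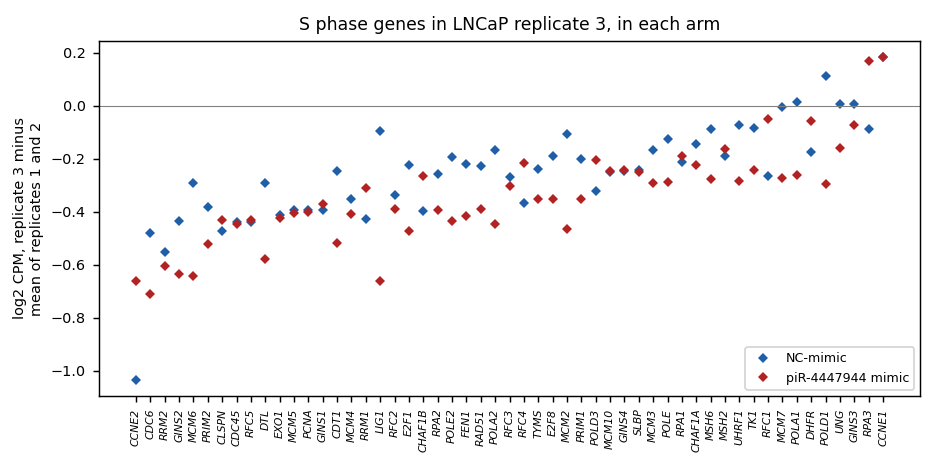
Difference of replicate 3 from the mean of replicates 1 and 2 (log2 CPM, y axis) for the 53 S phase genes (x axis, ordered by their log2 fold change) in LNCaP with NC-mimic (blue) and with piR-4447944 mimic (red). Nearly all points of both arms lie below 0, from CCNE2 at the left to CCNE1 at the right.

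The promoters of the S phase list were searched for words that E2F factors bind. Most replication genes are driven by these factors, so a high share describes the list and not replicate 3. The 8-letter E2F words TTTGGCGC, TTTCGCGC, TTTCCCGC and TTTGCCGC, which can overlap each other, were searched on both strands from 250 bases before to 50 bases after the first RefSeq start of each gene (GRCh38.p14). A word stood in 23 of the 42 S phase promoters with a sequence (54.8%), in 6 of the 12 of called genes, in 3.33% of all 27305 promoters and in 5.29% of the 11230 promoters of genes tested in LNCaP. The words in the 6 called genes that hold one are shown in capitals, in the direction of the gene and 1 for each gene:
CDC6, chr17:40287877-40287902, plus strand: ccattcggaTTTGGCGCgagcgcggc
MCM6, chr2:135876517-135876542, minus strand: ttggtcaggTTTGGCGCgaaatctcc
GINS1, chr20:25407669-25407694, plus strand: ctttgttcgGCGCCAAAgcgcggagc
GINS2, chr16:85688969-85688994, minus strand: ctcgccgtgGCGGGAAAacggcggcc
PCNA, chr20:5126665-5126690, minus strand: gcgtcagggGCGGGAAAaggcgtgcg
CLSPN, chr1:35769967-35769992, minus strand: tctggctggGCGGGAAAgcaagaaca
A match of letters is a description and not a measured site.

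Mitosis genes lay lower too, with fewer past the cut. Of 56 G2 and mitosis genes, 4 were lower and none higher, 52 had a negative log2 fold change, and the median was -0.21 (-0.22 with NC-mimic, -0.21 with the mimic). MKI67, the proliferation marker Ki-67, measured 192, 198 and 164 CPM in NC-mimic replicates 1, 2 and 3 and 207, 196 and 153 CPM in mimic replicates 1, 2 and 3 (log2 -0.32 ± 0.062). CDK1, the kinase that drives entry into mitosis, measured 213 and 212 CPM in the NC-mimic and mimic replicate 3, against 245 and 301 CPM in the other NC-mimic and 276 and 250.5 CPM in the other mimic libraries (log2 -0.33 ± 0.076), and its NC-mimic replicate 2 stood highest. The spindle checkpoint kinase BUB1B (-0.31 ± 0.074) and the condensin subunit NCAPG (-0.47 ± 0.10) completed the 4. None of the 4 passed without NC-mimic replicate 3, mimic replicate 3 or mimic replicate 1. The replication-dependent histone genes, whose messages rise in S phase, did not lie lower: 26 were tested, none was called, and their median was 0.15.

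**Figure D2:**
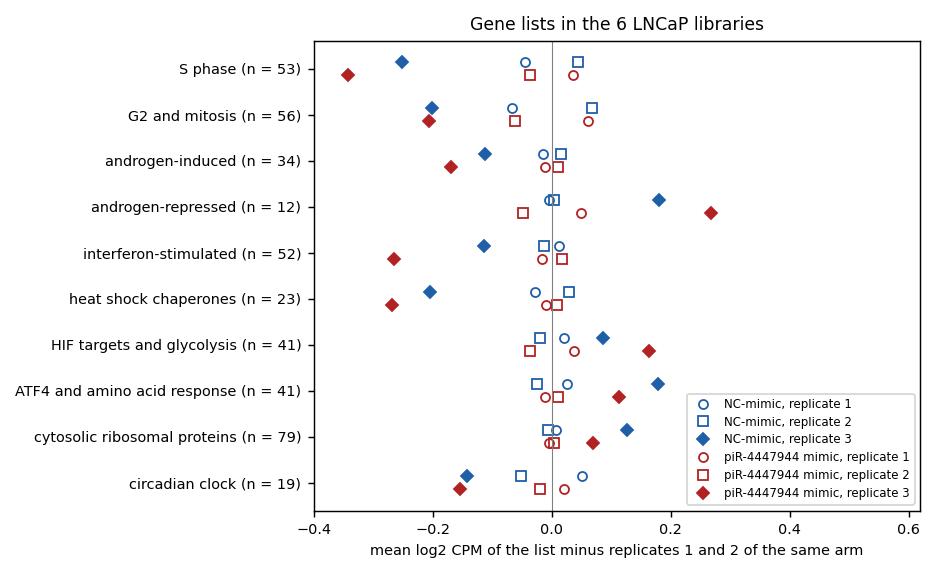
Mean log2 CPM of 10 gene lists in each LNCaP library, as the difference from the mean of replicates 1 and 2 of its own arm (x axis). Open symbols are replicates 1 and 2 and filled diamonds replicate 3, blue for NC-mimic and red for the mimic. For the S phase list replicate 3 lies at -0.25 and -0.34, for the androgen-repressed list at 0.18 and 0.27.

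Genes of the androgen response were arranged in opposite directions. Of 34 androgen-induced genes, 7 were lower and 1 higher in replicate 3 (median -0.14), and of 12 androgen-repressed genes, 5 were higher and none lower (median 0.35). Among the 7 were HERC3, ELL2, MPHOSPH9, NCAPD3 and PMEPA1. HERC3, a ubiquitin ligase gene, showed the greatest difference, with 101 and 113 CPM in NC-mimic replicates 1 and 2 and 67.1 CPM in replicate 3, and 96.02, 92.7 and 49.2 CPM in the same order with the mimic (log2 -0.80 ± 0.081). The elongation factor ELL2 differed by -0.45 ± 0.099. KLK3, which encodes PSA, did not pass and had a positive log2 fold change of 0.17 ± 0.050, and FKBP5 (-0.14 ± 0.076) and TMPRSS2 (-0.091 ± 0.068) did not pass either (these 3 were chosen after their values were seen). The 1 higher member, NDRG1, is also induced by hypoxia.

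Among the androgen-repressed genes, UGT2B15, an enzyme that conjugates and clears androgens, measured 161 and 189.5 CPM in NC-mimic replicates 1 and 2 and 234 CPM in replicate 3, and 181, 152 and 235 CPM in the same order with the mimic (log2 0.46 ± 0.078). Its near-identical neighbour UGT2B17 did not move with it, and the sum of both was 533 and 539 CPM in replicate 3 against 433 to 540.1 CPM in the others, so that the division of reads between them is uncertain. The related UGT2B11 was higher by 0.63 ± 0.13. DDC, which makes dopamine and serotonin, measured 235 and 244 CPM in the NC-mimic and mimic replicate 3, against 179 and 179 CPM in the other NC-mimic and 193 and 183 CPM in the other mimic libraries (log2 0.38 ± 0.056). SYT4, a vesicle protein (0.40 ± 0.068), and BCHE, the plasma cholinesterase (0.54 ± 0.098), were also higher. The 5 calls were 2 without NC-mimic replicate 3, 0 without mimic replicate 3 and 3 without mimic replicate 1, and the 7 androgen-induced calls were 1 without any of these 3 and 3 without NC-mimic replicate 1.

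A small set of interferon-induced genes was lower. Of 52 interferon-stimulated genes, 4 were lower and none higher, namely RSAD2, IFIT3, IFIT1 and OASL, with a list median of -0.11. RSAD2, the antiviral enzyme viperin, measured 5.84, 6.13 and 2.61 CPM in NC-mimic replicates 1, 2 and 3 and 8.96, 7.97 and 4.800 CPM in mimic replicates 1, 2 and 3 (log2 -0.99 ± 0.19). IFIT1, which binds viral RNA caps, measured 20.7 and 22.2 CPM in NC-mimic replicates 1 and 2 and 13.8 CPM in replicate 3, and 37.3, 30.8 and 19.9 CPM in the same order with the mimic (log2 -0.71 ± 0.11), and the mimic arm as a whole lay higher. IFIT3, its partner, measured 5.46 and 5.49 CPM in the NC-mimic and mimic replicate 3, against 7.34 and 8.58 CPM in the other NC-mimic and 11.3 and 13.6 CPM in the other mimic libraries (log2 -0.87 ± 0.18), and the oligoadenylate synthetase-like OASL differed by -0.60 ± 0.10. IFI44L and OAS2 had the greatest differences of the list, -2.43 ± 0.63 and -1.03 ± 0.66, at under 3 CPM, and did not pass. CD274, the checkpoint ligand PD-L1, which interferon also induces, measured 14.7 and 16.1 CPM in the NC-mimic and mimic replicate 3, against 27.5 and 28.7 CPM in the other NC-mimic and 25.4 and 25.02 CPM in the other mimic libraries (log2 -0.79 ± 0.11). Summed over the 52 genes, replicate 3 with NC-mimic (1478 CPM) lay between its replicates (1445 and 1484 CPM). None of the 4 passed without the NC-mimic replicate 3 or without the mimic replicate 3, and 1 did without mimic replicate 1.

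The interferon response element GAAANNGAAA (both strands) stood in 26 of 40 interferon-stimulated promoters with a sequence (65%), in 3.65% of all 27305 promoters and in 2.81% of the 11230 of genes tested in LNCaP. IFIT1 and IFIT3 held it more than once, and 1 window of each is shown with the element in capitals, in the direction of the gene, where it reads in reverse:
IFIT1, chr10:89392499-89392524, plus strand: agctttagTTTCACTTTCccctttcg
IFIT3, chr10:89327867-89327892, plus strand: taaattagTTTCACTTTCcagtttcc
These windows only mark where the letters lie.

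Chaperone genes past the cut lay in both directions. Of 23 genes of the heat shock chaperone list, 5 were lower and 1 higher (median -0.18). This list is mostly cytosolic but holds the mitochondrial HSPD1 and HSPE1 and the regulator HSF1. Of 26 genes of the unfolded protein response of the endoplasmic reticulum, 4 were lower and 4 higher (median 0.050). HSPA8, the constitutive HSC70, measured 1695 and 1731 CPM in the NC-mimic and mimic replicate 3, against 2266 and 2408 CPM in the other NC-mimic and 2356 and 2278 CPM in the other mimic libraries (log2 -0.44 ± 0.046). HSPA1B, the inducible HSP70, differed by -0.47 ± 0.067, and the sum with its near-identical copy HSPA1A gave 342 and 331 CPM in replicate 3 against 419.9 to 521 CPM. HSPH1 (-0.41 ± 0.070), CHORDC1 (-0.45 ± 0.084) and DNAJA1 (-0.31 ± 0.055), which work with HSP70 and HSP90, were the other lower members. HSPB1, the small heat shock protein HSP27, went the other way, at 455, 454 and 618 CPM in NC-mimic replicates 1, 2 and 3 and 463, 481 and 580.1 CPM in mimic replicates 1, 2 and 3 (log2 0.37 ± 0.053), while HSF1 was at 0.069 ± 0.069 and did not pass.

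Of the list of the endoplasmic reticulum, the 4 higher genes encode folding proteins of the lumen: CALR (0.27 ± 0.052), HSP90B1 (0.24 ± 0.057), PDIA6 (0.23 ± 0.054) and PDIA4 (0.22 ± 0.051). The 4 lower genes were HERPUD1 (-0.63 ± 0.067) and SYVN1 (-0.31 ± 0.065), which act in the degradation of misfolded proteins, and the co-chaperones DNAJB9 (-0.53 ± 0.091) and DNAJC3 (-0.47 ± 0.077). HERPUD1 measured 196 and 197 CPM in NC-mimic replicates 1 and 2 and 137 CPM in replicate 3, and 205, 220.4 and 128 CPM in the same order with the mimic. Of the 4 lower genes, 1 passed without NC-mimic replicate 3, 1 without mimic replicate 3 and 2 without mimic replicate 1. The 4 higher genes, whose differences were small, did not pass without the NC-mimic replicate 3, without the mimic replicate 3 or without mimic replicate 1. Of the 5 lower cytosolic chaperones, 2 passed without NC-mimic replicate 3, 1 without mimic replicate 3 and 2 without mimic replicate 1.

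A few genes of nutrient and oxygen stress were higher. Of 41 genes of the ATF4 and amino acid response, 3 were higher and none lower (median 0.15), and of 41 HIF targets and glycolysis genes, 3 were higher and none lower (median 0.081). GDF15, a secreted stress cytokine, measured 689, 589 and 907 CPM in NC-mimic replicates 1, 2 and 3 and 732, 829 and 1012 CPM in mimic replicates 1, 2 and 3 (log2 0.44 ± 0.067). DDIT4, an inhibitor of mTORC1 that both lists hold, measured 256 and 261 CPM in the NC-mimic and mimic replicate 3, against 181 and 147 CPM in the other NC-mimic and 184 and 202 CPM in the other mimic libraries (log2 0.54 ± 0.079), and the mitochondrial gluconeogenic enzyme PCK2 differed by 0.28 ± 0.064. NDRG1, a stress-response gene, measured 81.4 and 104 CPM in the NC-mimic and mimic replicate 3, against 54.4 and 57.98 CPM in the other NC-mimic and 55.2 and 64.1 CPM in the other mimic libraries (log2 0.67 ± 0.082), and the angiogenic factor VEGFA differed by 0.42 ± 0.070. ATF4 was at 0.18 ± 0.053 and HIF1A at -0.12 ± 0.071, and neither passed. The 3 ATF4 calls became 0 and 1 without the NC-mimic or the mimic replicate 3, and the 3 HIF calls 1 and 1.

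The genes that led the higher side had varied functions. OR51E1, an olfactory receptor expressed in the prostate, measured 4.96 and 3.42 CPM in NC-mimic replicates 1 and 2 and 9.89 CPM in replicate 3, and 2.16, 2.76 and 10.9 CPM in the same order with the mimic (log2 1.67 ± 0.23). ESPN, an actin-bundling protein, measured 12.7 and 14.9 CPM in the NC-mimic and mimic replicate 3, against 6.61 and 6.28 CPM in the other NC-mimic and 5.59 and 6.62 CPM in the other mimic libraries (log2 1.13 ± 0.15). Replicate 3 was the highest library of its arm for both, which the choice of leading genes required. SOX9, a transcription factor of prostate epithelial progenitors, measured 8.32, 7.203 and 11.95 CPM in NC-mimic replicates 1, 2 and 3 and 8.36, 8.77 and 16.1 CPM in mimic replicates 1, 2 and 3 (log2 0.77 ± 0.14). CAVIN1, a coat protein of caveolae (0.88 ± 0.18), SLC16A7, the lactate and pyruvate transporter MCT2 (0.84 ± 0.15), TRIM2, a ubiquitin ligase (0.79 ± 0.19), DOC2A, a calcium sensor of vesicle release (0.94 ± 0.18), KCNU1, a potassium channel (0.77 ± 0.16), and C2orf72 (0.91 ± 0.18), LIMD2 (0.78 ± 0.17) and AC000120.3 (1.10 ± 0.22) followed. Most of these genes lay between 2 and 20 CPM.

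On the lower side, apart from the genes above, the leading genes were AMIGO3 (-1.19 ± 0.24), ID1, PER3, the origin recognition subunit ORC3 (-0.76 ± 0.17) and the replication fork protein DONSON (-0.68 ± 0.14). Some leading genes share reads with a copy or an overlapping gene. FAM156A was higher by 1.23 ± 0.28 and its near-identical copy FAM156B lower by -0.60 ± 0.13, and their sum was 48.1 and 47.8 CPM in replicate 3 against 47.3 to 59.5 CPM. The readthrough gene FAM47E-STBD1 was lower by -0.93 ± 0.19 while STBD1 was higher by 0.48 ± 0.11, and the 3 genes of that locus summed to 32.0 and 32.3 CPM against 28.6 to 31.5 CPM. AMIGO3 overlaps GMPPB, which was more abundant, at 61.1 to 76.6 CPM, so its level is uncertain.

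**Figure D3:**
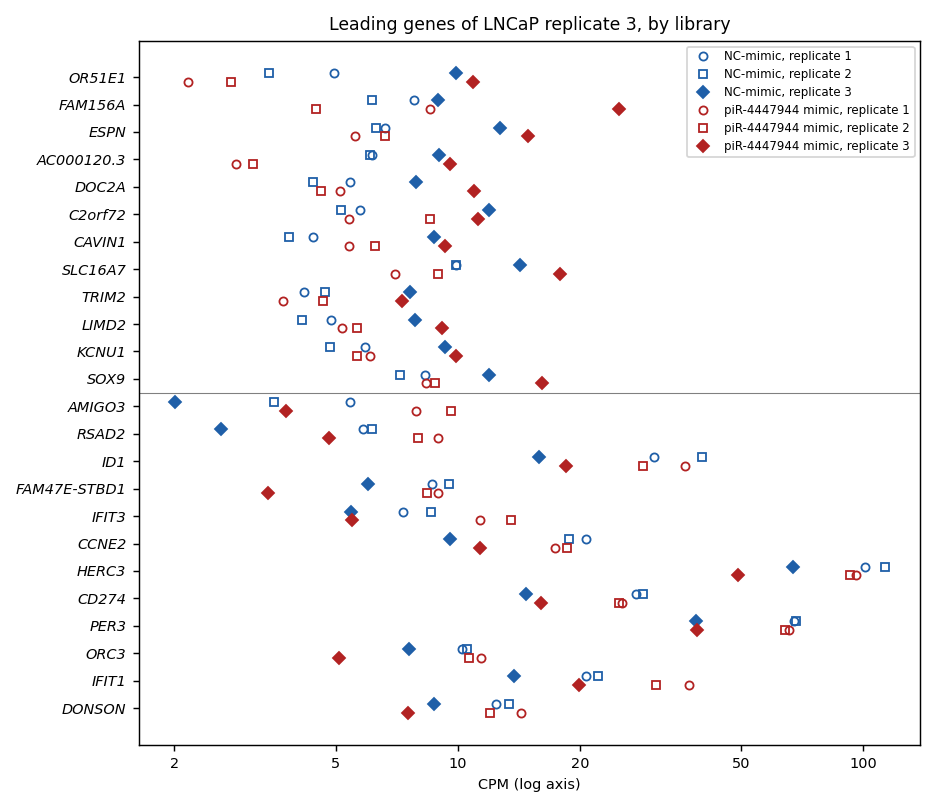
CPM on a log axis in each of the 6 LNCaP libraries (symbols as labelled) for the 12 genes per direction with the greatest log2 fold change, higher above the line and lower below it, among called protein-coding genes with a mean of at least 5 CPM and replicate 3 outside the others in both arms. The filled diamonds are replicate 3, and that they lie on one side of the open symbols of their arm is part of how the genes were chosen.

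The clock and ID genes were grouped after their values were seen. Of 19 clock genes tested, 3 were lower and none higher (median -0.19). PER3, a repressor of the clock, measured 67.5 and 68.3 CPM in NC-mimic replicates 1 and 2 and 38.7 CPM in replicate 3, and 65.6, 64.1 and 38.98 CPM in the same order with the mimic (log2 -0.77 ± 0.075). PER2 (-0.59 ± 0.14) and TEF, a clock output factor (-0.43 ± 0.10), were the others. ID1, an inhibitor of helix-loop-helix factors and a target of BMP signals, measured 15.9 and 18.4 CPM in the NC-mimic and mimic replicate 3, against 30.5 and 39.95 CPM in the other NC-mimic and 36.3 and 28.6 CPM in the other mimic libraries (log2 -0.98 ± 0.14). ID3 (-0.44 ± 0.092) and the BMP effector SMAD9 (-0.53 ± 0.12) were lower with it, 3 of 8 genes tested. RBM3, an RNA-binding protein induced by mild cold, measured 194, 183 and 133 CPM in NC-mimic replicates 1, 2 and 3 and 199.9, 206 and 131 CPM in mimic replicates 1, 2 and 3 (log2 -0.57 ± 0.062), whereas the cold-induced CIRBP did not pass (-0.087 ± 0.058).

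The 79 cytosolic ribosomal protein genes had a median of 0.084, with 49 above both other replicates in each arm. Of the 79, 2 were called, RPL13A (0.21 ± 0.044) and RPL39 (0.22 ± 0.051), and without NC-mimic replicate 2 the count was 16. With a gene length trend removed, the median of this list was 0.011. Over the 1685 shortest genes tested, the median was 0.064 (0.087 with NC-mimic, 0.040 with the mimic). Over the 1685 longest it was -0.016 (-0.042 with NC-mimic, 0.012 with the mimic). The cause of this length trend was not tested. Of the 13 mitochondrially encoded genes, MT-ND1 was lower (-0.27 ± 0.066), with a list median of -0.20 with NC-mimic and -0.010 with the mimic. No gene was called among the 76 nuclear-encoded respiratory chain, 31 proteasome, 33 lysosome and autophagy, 32 immediate early, 32 ribosome biogenesis and MYC target, 18 NF-kB target, 17 epithelial-mesenchymal and matrix, 17 lipid droplet and peroxisome and 9 metallothionein and zinc genes. Of 24 cholesterol synthesis genes 1 was lower, with a median of -0.037. Of 24 NRF2 targets, NQO1 was lower (-0.28 ± 0.063), and fatty acid synthesis held 1 higher and 1 lower gene of 19. Of 30 splicing regulators, 2 were lower, among them NKTR (-0.26 ± 0.060). COL1A1, 0.34 ± 0.069, was the 1 called marker of another cell type, with 81.3 and 76.8 CPM in the NC-mimic and mimic replicate 3, against 65.7 and 67.3 CPM in the other NC-mimic and 58.3 and 58.4 CPM in the other mimic libraries. In all, 66 of the 303 called genes were in at least 1 of the 32 lists, 19 of the 142 higher and 47 of the 161 lower. The share of all genes tested that the lists hold was not counted, and the lists were written with earlier results of these data known. These counts therefore do not measure enrichment.

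The base composition of genes moved with replicate 3 in 1 arm. With NC-mimic, the median difference of replicate 3 ran from -0.18 in the tenth of genes with the lowest GC content to 0.23 in the tenth with the highest. With the mimic it ran from -0.013 to 0.046. Replicates 1 and 2 differed from each other with GC as well, by 0.12 to -0.15 with NC-mimic and -0.064 to 0.058 with the mimic. The S phase median was -0.24 in the NC-mimic arm and -0.35 in the mimic arm, each with 1 replicate 3 library. The part of base composition in the differences of the lists was not tested. With a GC trend removed from each library, 713 genes were called (297 higher, 416 lower), among them 287 of the 303, and the lists read 29 of 53 S phase, 9 of 56 mitosis, 8 of 52 interferon-stimulated and 9 of 23 heat shock genes lower.

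**Figure D4:**
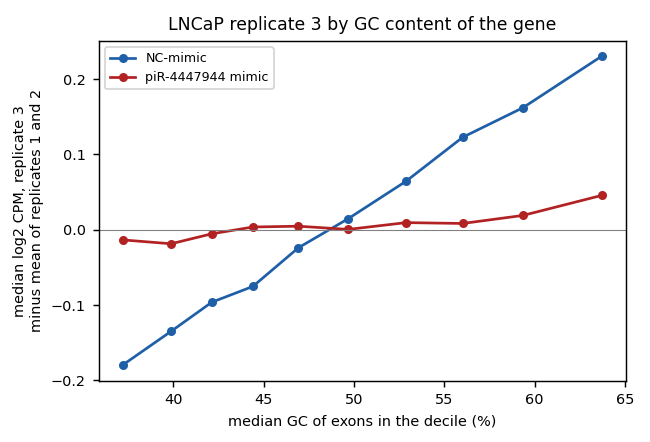
Median difference of replicate 3 from the mean of replicates 1 and 2 (log2 CPM, y axis) for genes in 10 bins of exon GC content (x axis), with NC-mimic in blue and the mimic in red. The blue line rises from -0.18 to 0.23, and the red line stays between -0.019 and 0.046.

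The same contrast was then tested in 22Rv1, whose 6 libraries the choice of the LNCaP libraries did not use. Replicate 3 stood much further apart there, with 2376 of 17944 genes (13.2%) called, 1262 higher (7.03%) and 1114 lower (6.21%), and its biological coefficient of variation was 0.229, where that of LNCaP was 0.0737. Of the 303 genes called in LNCaP, 284 were tested in 22Rv1. Of these, 75 were called in the same direction, 32 higher and 43 lower, and 14 in the opposite direction (edgeR quasi-likelihood test). The 75 made up 26.4% of the LNCaP genes tested in 22Rv1 and 3.64% of the 22Rv1 calls tested in LNCaP. The sign was shared by 207 of 284 (72.9%), against 58.5% of 15411 genes tested in both lines. The 75 became 26 without 22Rv1 NC-mimic replicate 1, 39 without mimic replicate 1, 30 without mimic replicate 2 and 134 without NC-mimic replicate 3, and 9 and 4 without the NC-mimic and the mimic replicate 3 of LNCaP.

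Part of the replication group also fell in 22Rv1. Of the 15 S phase genes lower in LNCaP replicate 3, 8 also fell in 22Rv1 replicate 3, with CDC6 at -1.07 ± 0.29 (SE), adjusted p = 0.0492, MCM5 at -1.07 ± 0.23 (SE), adjusted p = 0.0223 and FEN1 at -1.02 ± 0.26 (SE), adjusted p = 0.0381. Over all 53 S phase genes, 27 fell and none rose in 22Rv1, with a median of -0.91 (-0.37 with NC-mimic and -1.45 with the mimic), and 31 of 56 mitosis genes fell. Outside the lists, HELLS, a chromatin helicase, was at -0.63 ± 0.097 in LNCaP and fell in 22Rv1 (-1.06 ± 0.26 (SE), adjusted p = 0.0343). FAM111B was at -0.60 ± 0.096 and fell by more in 22Rv1 (-1.63 ± 0.16 (SE), adjusted p = 0.00109). DONSON was at -0.68 ± 0.14 in LNCaP and fell in 22Rv1 (-0.70 ± 0.14 (SE), adjusted p = 0.0176). Of the higher genes, ESPN rose in 22Rv1 (2.86 ± 0.27 (SE), adjusted p = 0.00102), as did the neuronal calcium sensor HPCAL4 (1.41 ± 0.31 in LNCaP, 4.66 ± 1.05 (SE), adjusted p = 0.027 in 22Rv1) and the potassium channel KCNN1 (2.64 ± 0.57 in LNCaP, 2.81 ± 0.37 (SE), adjusted p = 0.00384 in 22Rv1), the last at under 2 CPM in LNCaP.

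Other genes differed between the lines, described by an interaction of replicate 3 with line over the 12 libraries. This fit shared dispersions between the lines, although their coefficients of variation were 0.0737 (LNCaP) and 0.229 (22Rv1). Its SE can therefore be too small, and its LNCaP part was chosen by its values. An adjusted p under 0.05 in this fit (edgeR) serves only as a cut for listing genes. The interaction passed that cut for 1426 of 19566 genes (7.29%), among them 62 of the 303 genes called in LNCaP, of which 38 had opposite signs. PER3 was lower in LNCaP and rose in 22Rv1 (1.57 ± 0.34 (SE), adjusted p = 0.0231), a difference of 2.37 ± 0.20 (SE). The SE of that difference was below the SE of its 22Rv1 part alone. ID1 likewise rose in 22Rv1 (1.16 ± 0.12 (SE), adjusted p = 0.0013), with a difference between lines of 2.15 ± 0.21 (SE). DDC fell in 22Rv1 (-2.62 ± 0.26 (SE), adjusted p = 0.00115), against its higher level in LNCaP, with a difference of -2.98 ± 0.17 (SE), and UGT2B15 did so too (-1.75 ± 0.17 (SE), adjusted p = 0.0011). NQO1, which makes a quinone reductase, was lower in LNCaP and rose in 22Rv1 (2.98 ± 0.45 (SE), adjusted p = 0.00637). GDF15 rose in 22Rv1 by far more than it differed in LNCaP (3.97 ± 0.11 (SE), adjusted p = 7.93e-06), with a difference of 3.54 ± 0.14 (SE). Of the 41 ATF4 genes 26 rose and 1 fell in 22Rv1, and of the 41 HIF and glycolysis genes 18 rose, with a median of 1.54 (0.29 with NC-mimic, 2.37 with the mimic), where LNCaP showed 0.081. The cholesterol synthesis genes, with 23 of 24 falling in 22Rv1 (median -1.38), had a median of -0.037 in LNCaP.

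**Figure D5:**
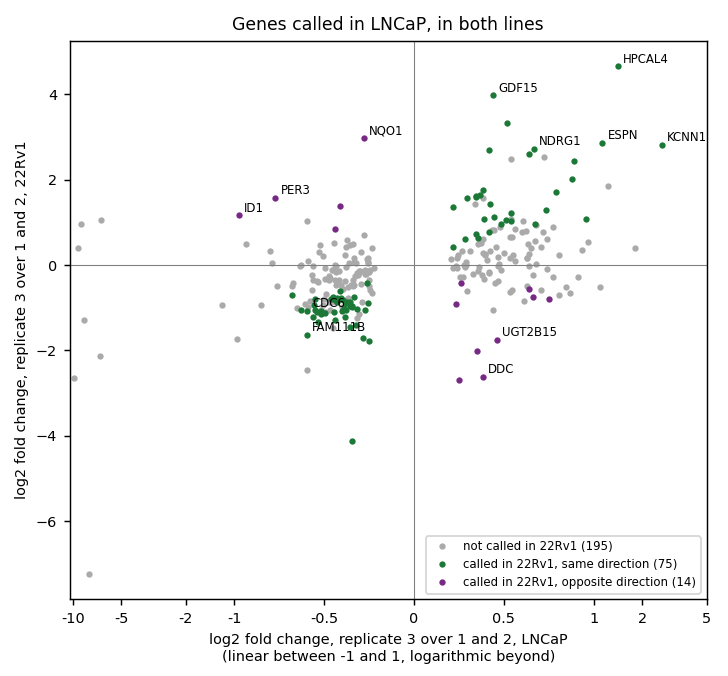
Log2 fold change of replicate 3 over replicates 1 and 2 in LNCaP (x axis, linear between -1 and 1 and logarithmic beyond) and 22Rv1 (y axis) for the 284 genes called in LNCaP and tested in both lines. Green points (75) passed in 22Rv1 in the same direction, purple points (14) in the opposite direction, and grey points did not pass. The grey points at the far left edge are genes with no count in either LNCaP replicate 3 library, whose fitted value is no bound.

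Whether replicate 3 differed in the same way in both arms of LNCaP was tested as an interaction of replicate 3 with the mimic, on 2 residual degrees of freedom. Of 17815 genes, 4 passed (0.0225%), and 943 had an unadjusted p under 0.05 (edgeR quasi-likelihood test). The 4 were RGPD6, CDRT4, RPL36A-HNRNPH2 and AC002996.1. The first 3 share sequence with other genes. RGPD6 measured 43.5, 64.6 and 11.7 CPM with NC-mimic and 38.1, 29.3 and 42.0 CPM with the mimic (replicates 1, 2 and 3), while its sum with the near-identical RGPD5 ran from 61.6 to 73.7 CPM over the 6 libraries. CDRT4 fell to 0.808 CPM in mimic replicate 3, and its sum with TVP23C and their readthrough ran from 18.7 to 22.3 CPM. None of the genes that led the replicate 3 difference was among the 4. These leading genes were chosen to lie on the same side in both arms, so their absence does not bear on likeness between the arms.

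The mimic was the treatment of the study, and replicate 3 bears on its measured effect. With replicate 3 as a term, 1 of 16843 genes passed an adjusted p under 0.05 for mimic over NC-mimic (0.00594%), IFI6, and 775 had an unadjusted p under 0.05. IFI6, an interferon-induced mitochondrial protein, measured 20.3 and 17.6 CPM in NC-mimic replicates 1 and 2 and 20.4 CPM in replicate 3, and 33.3, 37.3 and 29.4 CPM in the same order with the mimic, so that all 3 mimic libraries lay above all 3 controls (log2 0.78 ± 0.11, SE, adjusted p = 0.0423, edgeR). A cut with the thresholds of the study (unadjusted p below 0.05, log2 fold change beyond 0.2 either way), applied here to the edgeR test and its unshrunken fold changes where the study used DESeq2 with shrunken ones, listed 566 genes (3.36%), 353 higher and 213 lower. It listed 301 with the DESeq2 test and unshrunken fold changes, and 361 of 16244 genes in an edgeR fit without the replicate 3 term, whose count filter also kept fewer genes. It listed 1008 without NC-mimic replicate 3 and 1001 without mimic replicate 3. In both of these fits the replicate 3 term takes up the lone replicate 3 library. Both therefore compare replicates 1 and 2 of the arms and are not separate checks. IFIT1, low in replicate 3 of both arms, had a mimic log2 fold change of 0.63 ± 0.10 (SE, adjusted p = 0.103, edgeR), which did not pass.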

How the data were processed

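Messenger RNA of the LNCaP and 22Rv1 lines was sequenced in 12 libraries, 3 for each of 4 groups. Per the labels, the authors aligned reads to hg38 with STAR 2.7.1a and estimated gene abundance with RSEM 1.3.0. The deposited expected counts are RSEM's estimated reads per gene, not normalized, and the deposited TPM values are the same estimates divided by transcript length and scaled to a common total. A deposited table of TPM for all libraries repeats these values and was not used. Another deposited column holds gene lengths in bases, of unit other.

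Expected counts were rounded to whole numbers. Genes were kept by filterByExpr of edgeR 4.0.16, libraries scaled by TMM, and the quasi-likelihood test fitted with arm and replicate 3 as terms, on 3 residual degrees of freedom, with Benjamini-Hochberg adjustment over all genes of a fit and a threshold of 0.05. CPM are counts over the scaled library size. SE are the log2 fold change over the root of F. The interactions with arm (within LNCaP) and with line (12 libraries) were separate fits. Scripts were tested on simulated counts.

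The 2 replicate 3 libraries were chosen by their values, and members and gene lists were chosen with earlier results of these data known. Named genes were the 12 called protein-coding genes per direction with the greatest log2 fold change, a mean of at least 5 CPM and replicate 3 outside the others in both arms, the 2 greatest of each of 32 lists, 3 per direction called in both lines, and regulators of the lists, among them HIF1A, ATF4, SREBF2, MYC, NFE2L2 and HSF1. Some genes that this rule names, and 1 of the lists, are not reported here. Called members of lists and genes with a copy are named besides, and the 2 lists of clock and of BMP and ID genes were added after values were seen. GC content came from GENCODE gene models on hg38 and was known for 16801 of 16843 genes. Depth was 14894247 to 19739559 expected counts per LNCaP library. Alternatives were DESeq2 size factors, total counts, other count filters, DESeq2, limma on log2(TPM + 1) with a pseudocount of 1 and TPM of at least 1 in 2 libraries, all 12 libraries in 1 fit, length and GC trends, a replicate block, and leaving out each library.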

Additional observations from a re-analysis of the deposited data

Results flagged for a closer look

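In 4 genes the replicate 3 difference of LNCaP differed between the mimic and the NC-mimic arm by the interaction test (edgeR). The difference between arms, mimic minus NC-mimic, was 2.53 on the log2 scale for RGPD6, -3.86 for CDRT4, 1.03 for RPL36A-HNRNPH2 and 12.59 for AC002996.1. The value of AC002996.1 rests on a library with no count (0.567, 0.922 and 0 CPM with NC-mimic, and 0.0672, 0.0613 and 4.21 CPM with the mimic) and is no bound. RPL36A-HNRNPH2, a readthrough gene, measured 166, 196 and 92.8 CPM with NC-mimic and 218, 209 and 223 CPM with the mimic, and its sum with RPL36A and HNRNPH2 ran from 559.5 to 663 CPM. Whether reads were divided differently between these gene pairs in single libraries was not tested.

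In 9 of the leading or shared genes the replicate 3 difference between the lines passed the cut of the interaction fit (edgeR). That fit shared dispersions between lines of unlike spread, and the genes were chosen by their LNCaP values, so the cut only lists them. The difference between lines, 22Rv1 minus LNCaP on the log2 scale, was 1.74 for ESPN, 1.15 for CAVIN1 and -1.02 for FAM111B, whose direction was the same in both lines and the size greater in 22Rv1. It was 2.15 for ID1 and 2.37 for PER3, which passed with opposite directions in the lines. It was -1.17 for C2orf72, -1.03 for SOX9 and 1.16 for HERC3, none of which passed in 22Rv1 alone, and 5.43 for IFIT3, which did not pass the count filter in 22Rv1, so this value rests on very few counts there.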

How the results depend on the processing

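The 24 leading genes passed the cut in 272 of 384 values over 16 alternatives each (edgeR, DESeq2 or limma), and their directions, which the choice of genes fixes, are no sign of stability. The median of a gene list changed sign under some alternative for 7 of 32 lists, none of them among those with more than 2 calls except the unfolded protein response list.

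The number of genes called in LNCaP replicate 3, 303, was 886 with no count filter, 474 with at least 10 counts in every library, 713 with the GC trend removed and 21 with an absolute log2 fold change over 1. It was 4 with limma on log2(TPM + 1), of which none was among the 303, where 1926 genes had an unadjusted p under 0.05, 251 of the 303 included. It was 0 with all 12 libraries in 1 edgeR fit, where 22Rv1 shares the dispersion, and there 1059 genes had an unadjusted p under 0.05, 220 of the 303 included. Leaving out 1 LNCaP library gave 40 to 569. The genes moved the same way in 22Rv1, 75, were 333 with no filter, 140 with at least 10 counts, 140 by DESeq2, 192 with the GC trend removed and 0 by limma, which called 960 genes in 22Rv1 (4257 at an unadjusted p under 0.05), and 4 to 134 with 1 library left out. The genes with an interaction of replicate 3 and mimic, 4, were 1 with DESeq2 size factors, 1 with total counts, 7 with no filter and 8 by DESeq2. The interaction with line, 1426 genes, gave 2494 with no filter and 2176 by DESeq2, and 284 to 4465 with 1 library left out, the last without 22Rv1 NC-mimic replicate 3. The genes listed for the mimic, 566, were 912 with no filter, 301 by DESeq2 and 541 to 1008 with 1 library left out. Where a library left a replicate 3 arm empty, the lone library was assumed to vary like the others. For the mimic, the lone replicate 3 library then has no part in the estimate. The cause of these changes was not tested.

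Deviations of same-numbered LNCaP libraries correlated at 0.063 for replicate 1, 0.0057 for replicate 2 and 0.24 for replicate 3. The numbers thus showed little pairing outside replicate 3, and 2 of 6 libraries correlated best with their own number. With a replicate block, which left fewer residual degrees of freedom, 149 genes were called, 144 of the 303 included, and 19 moved the same way in 22Rv1. The mimic rule listed 531 genes with the replicate block and 361 with no replicate block and no replicate 3 term.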

Other observations

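Beside PER3, ID1, ID3, DDC, UGT2B15 and NQO1, 8 further genes passed in both lines with opposite directions of replicate 3. SREBF1, the regulator of fatty acid synthesis, was at 0.25 ± 0.057 (log2, SE) in LNCaP and fell in 22Rv1 (-2.70 ± 0.20 (SE), adjusted p = 0.000462, edgeR), and MID1IP1, which promotes fatty acid synthesis, was at 0.24 ± 0.056 and fell as well (-0.92 ± 0.19 (SE), adjusted p = 0.019). The peptide hormone APLN (0.64 ± 0.12), the integrin activator FERMT1 (0.66 ± 0.13), the unconventional myosin MYO1C (0.26 ± 0.055), COLCA1 (0.35 ± 0.062) and the long non-coding RNA OLMALINC (0.75 ± 0.17) were likewise higher in LNCaP replicate 3 and fell in 22Rv1. LINC01145 was lower in LNCaP (-0.41 ± 0.076) and rose in 22Rv1 (1.38 ± 0.21 (SE), adjusted p = 0.0072).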
